A study of Homo sapiens with 6 samples.

Results

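The genes examined here are 28 genes of cholesterol synthesis and of its control by the sterol regulatory element-binding proteins (SREBPs), taken as a named list. No cut on a measured value set the list, but it was chosen with earlier results of these data known. A probe set counted for a gene when the platform annotation gave it that gene symbol alone. By this rule 26 of the 28 genes were measured, by 55 of the 54613 probe sets tested. They stand among 19775 genes in all. FDFT1 was not analysed here. The 2 probe sets of CYP51A1 carry a second symbol as well and were left out by the rule.

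K562, a human erythroleukemia line derived from chronic myeloid leukemia, was used in the form of 3 stably transfected clones, CL4, CL9 and CL46, which carry a doxycycline (DOX)-inducible ERG construct, pTRE ERG3. ERG is a transcription factor of the ETS family. Each clone was grown with 1 µg/ml DOX for 8 days (ERG-induced; a legend of the study gives 6 days) and without DOX (non-induced), and total RNA of each culture was hybridized to 1 Affymetrix U133 Plus 2.0 array. Each group therefore holds 3 arrays. All induced cultures and no others received DOX, so that effects of ERG and of DOX cannot be told apart. With 1 array per clone and condition, the errors mix the spread between clones, cultures and arrays, which cannot be separated.

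Cholesterol is built from acetyl-CoA. The mevalonate steps give isoprenoid units, which are joined to farnesyl and geranylgeranyl diphosphate, and farnesyl diphosphate is turned into squalene, lanosterol and finally cholesterol. SREBF2 and SREBF1 encode the membrane-bound SREBPs. When sterols are scarce, the escort protein SCAP carries them to the Golgi, where they are cleaved and freed to switch on their target genes. When sterols are plentiful, the INSIG proteins hold SCAP in the endoplasmic reticulum. The pathway is therefore known for target genes that move as a block when cellular sterol changes.

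In these arrays the list, which also holds genes of SREBP control, did not move as a block. At the thresholds of the study, at least a 2-fold difference with a p below 0.05 before adjustment (here by limma), 3 of the 26 genes fell in ERG-induced cells and 0 rose. The 3 were HMGCS1, which makes HMG-CoA for the mevalonate pathway, GGPS1, which makes geranylgeranyl diphosphate, and STARD4, a carrier of cholesterol through the cytosol. They make up 11.5% of the members, against 6.32% of all genes called lower, 3.12% called higher and 9.44% called either way. Over all genes 1250 fell and 617 rose, a split that was 999 to 749 with arrays centred on their medians and 923 to 848 after quantile normalization of the arrays, where 2 members fell and 0 rose in either case. No member passed after Benjamini-Hochberg adjustment over all genes (limma; lowest adjusted p = 0.246), and neither did any of the 19775 genes (lowest 0.101). An unadjusted p under 0.05 was found for 5 of the 26 members and for 2544 of all genes. The median log2 difference of the members, ERG-induced minus non-induced, was 0.04, against -0.03 for all genes.

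The promoters of the genes that fell are shown first, because SREBPs act on their target genes through promoter sequence. RefSeq windows (GRCh38.p14) were available for 24 of the 28 genes, some with several start sites, and the 250 bases before each start were searched on both strands and for each motif separately. The sterol regulatory element was searched as TCACNCCAC, the box bound by NF-Y, a usual partner of SREBPs, as CCAAT, and an ETS site as CCGGAAG. The first entry of each of the 3 genes that fell is printed 5′ to 3′ on the strand of the gene, together with that of SREBF2, which held the one match to the sterol regulatory element. Capitals mark matches to the sterol regulatory element or to the NF-Y box on either strand, the latter read as ATTGG when it lies on the other strand. The windows are chr5:43313413-43313662 on the minus strand for HMGCS1, chr1:235326966-235327215 on the plus strand for GGPS1, chr5:111512536-111512785 on the minus strand for STARD4 and chr22:41832855-41833104 on the plus strand for SREBF2.
HMGCS1: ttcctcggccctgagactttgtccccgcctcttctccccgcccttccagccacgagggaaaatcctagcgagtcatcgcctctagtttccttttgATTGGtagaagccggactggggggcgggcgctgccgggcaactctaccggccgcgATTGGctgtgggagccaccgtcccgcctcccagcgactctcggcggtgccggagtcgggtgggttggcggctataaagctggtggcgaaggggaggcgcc
GGPS1: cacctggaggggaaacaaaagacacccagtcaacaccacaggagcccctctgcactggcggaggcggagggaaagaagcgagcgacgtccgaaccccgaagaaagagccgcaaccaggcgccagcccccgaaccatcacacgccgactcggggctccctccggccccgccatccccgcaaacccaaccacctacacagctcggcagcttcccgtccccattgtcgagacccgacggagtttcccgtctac
STARD4: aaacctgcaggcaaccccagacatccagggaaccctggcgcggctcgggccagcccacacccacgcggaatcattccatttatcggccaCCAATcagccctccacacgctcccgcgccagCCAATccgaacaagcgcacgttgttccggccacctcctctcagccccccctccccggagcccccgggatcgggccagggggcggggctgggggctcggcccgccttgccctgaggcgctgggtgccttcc
SREBF2: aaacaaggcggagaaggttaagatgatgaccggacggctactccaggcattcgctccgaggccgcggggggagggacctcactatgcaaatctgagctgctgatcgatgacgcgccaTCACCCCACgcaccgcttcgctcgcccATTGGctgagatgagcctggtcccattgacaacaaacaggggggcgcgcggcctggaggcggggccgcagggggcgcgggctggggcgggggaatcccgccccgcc
In HMGCS1 the NF-Y boxes begin 155 and 100 bases before the start, and in STARD4 161 and 130 bases before it. The window of GGPS1 holds neither motif, and of its 2 further windows 1 holds an NF-Y box. The NF-Y box was found in 22 of the 34 windows of the list (64.7%), against 32.0% of the 35116 windows of all genes. The sterol regulatory element in these letters was found in 1 of the 34 (2.94%), against 0.883% of all windows, and the ETS site in 5 (14.7%), against 8.52%. The ETS matches lay in IDI1, FDPS, CYP51A1 and the 2 overlapping windows of INSIG2, and in none of the 3 genes that fell. These are matches of letters, and binding was not measured.

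HMGCS1 condenses acetoacetyl-CoA with acetyl-CoA and is a classical SREBP target. Its mean log2 ratio to the median of its own probe sets was -0.39, -1.26 and -0.68 in the ERG-induced arrays of CL4, CL9 and CL46, and 0.70, 0.31 and 0.41 in the non-induced arrays. All 3 induced arrays lay below all 3 non-induced ones. The fall was 2.37-fold (log2 difference -1.25, SE 0.32, adjusted p = 0.246 by limma), and the 3 clones gave -1.08, -1.56 and -1.09. Both of its probe sets were called lower, at -1.10 and -1.40.

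GGPS1 makes the lipid that anchors many small GTPases in membranes. Its log2 ratio was -0.31, -1.13 and -0.88 in the induced arrays of CL4, CL9 and CL46, and 0.31, 0.31 and 0.28 in the non-induced arrays. The non-induced clones were nearly level, and every induced array lay below them. The fall was 2.10-fold (log2 difference -1.07, SE 0.29, adjusted p = 0.262), just inside the fold threshold. With each array centred on its median the difference was -0.97, and quantile normalization gave -0.88, neither of which reached the fold threshold. Of its 2 probe sets, 1 was called lower (-1.46) and the other gave -0.69.

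STARD4 binds cholesterol and moves it between membranes, and its gene is controlled by SREBF2. The log2 ratio of its single probe set was -0.18, -1.47 and -0.56 in the induced arrays of CL4, CL9 and CL46, and 0.91, 0.16 and 1.09 in the non-induced ones. The groups did not overlap, although the non-induced array of CL9 stood well below the other two. STARD4 had the largest fall of the list, 2.74-fold (log2 difference -1.45, SE 0.45, adjusted p = 0.301). The clones CL4, CL9 and CL46 gave -1.09, -1.62 and -1.65.

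The 3 calls depended on which clone was left out. Without CL46, none of the 3 was called, at differences of -1.32 for HMGCS1, -1.03 for GGPS1 and -1.35 for STARD4. All 3 still passed the fold threshold, so that these calls were lost on the p, in a fit with fewer arrays. MVK was called higher instead (1.19), where without CL9 it gave 0.0737 and was not called. Without CL9, the call of GGPS1 was lost (-0.89), and without CL4 all 3 were called.

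**Figure D1:**
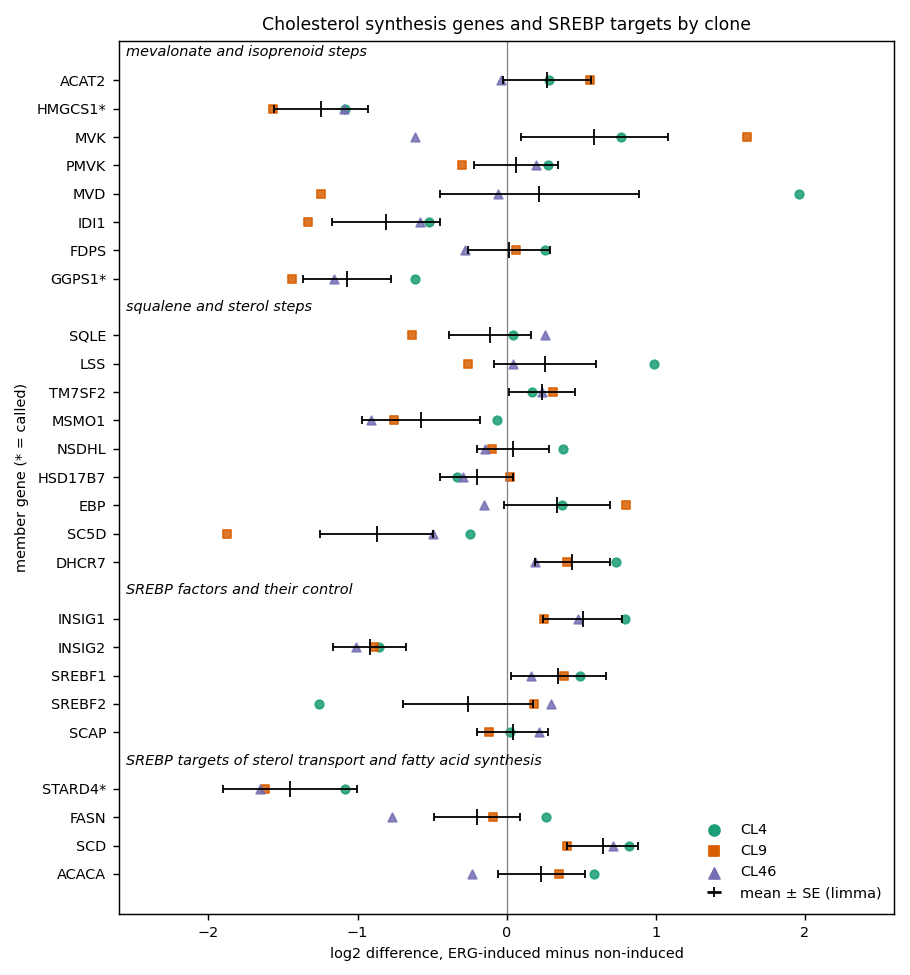
Log2 difference (x axis), ERG-induced minus non-induced, of the 26 measured members (y axis), grouped by role, with symbols for the clones CL4, CL9 and CL46 and black lines for the mean ± SE of the limma fit. HMGCS1, GGPS1 and STARD4, marked as called, lie left of 0 in all 3 clones, while INSIG1, DHCR7 and SCD lie right of 0 in all 3.

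The other members of the mevalonate and isoprenoid steps were not called. IDI1, which isomerizes isopentenyl diphosphate, had log2 ratios of -0.37, -1.11 and 0.00 in the induced arrays of CL4, CL9 and CL46 and of 0.15, 0.22 and 0.58 in the non-induced arrays. The groups did not overlap, by a small margin, and the difference was -0.81 (SE 0.36, adjusted p = 0.429). All 4 probe sets of IDI1 lay below 0, from -1.23 to -0.62. All except that at -0.78 are of the kind the platform marks as able to bind other transcripts. FDPS, which makes farnesyl diphosphate, gave 0.01 (SE 0.27), and PMVK, which phosphorylates phosphomevalonate, 0.06 (SE 0.28). ACAT2, the thiolase that supplies acetoacetyl-CoA, gave 0.27 (SE 0.30). MVD, the decarboxylase that ends the mevalonate steps, differed by 1.96 in CL4 and by -1.25 in CL9, with a mean of 0.22 (SE 0.67).

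MVK, mevalonate kinase, was not called, although 1 of its probe sets was. Its mean log2 ratio was 0.06, 0.25 and -0.20 in the induced arrays of CL4, CL9 and CL46 and -0.71, -1.36 and 0.42 in the non-induced arrays, so that the groups overlapped (difference 0.59, SE 0.49, adjusted p = 0.678). The one of its 4 probe sets that was called was higher, with a difference of 2.87 (SE 0.96, adjusted p = 0.309 over all probe sets). In that probe set the non-induced arrays stood at -2.74, -4.19 and -0.40 and the induced arrays at 0.31, 0.46 and 0.53. The other 3 probe sets gave 0.00, 0.18 and -0.72 and were not called.

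Among the squalene and sterol steps, 0 of 9 measured genes were called. SC5D, the lathosterol desaturase, had log2 ratios of -0.21, -1.34 and -0.55 in the induced arrays of CL4, CL9 and CL46 and of 0.03, 0.54 and -0.05 in the non-induced arrays. In the mean over its probe sets the induced arrays all lay below the others, most of all in CL9 (difference -0.87, SE 0.38, adjusted p = 0.420 by limma). Without CL9 the difference was -0.37. Within each of its 2 probe sets the groups overlapped. These gave -1.04 and -0.70, and the latter was at 0.10 in CL4. MSMO1, which removes methyl groups from lanosterol products, gave -0.58 (SE 0.40), with -0.06, -0.75 and -0.91 in CL4, CL9 and CL46. DHCR7, the reductase that forms cholesterol, gave 0.44 (SE 0.25, adjusted p = 0.529). Its clones gave 0.73, 0.40 and 0.19, and its 2 probe sets 0.40 and 0.49. TM7SF2, the sterol C14 reductase, gave 0.24 (SE 0.22), above 0 in each clone.
The other 5 genes of these steps had clones on both sides of 0. SQLE, the squalene epoxidase, gave -0.11 (SE 0.28), with 3 of its 4 probe sets between 0.15 and 0.16 and the other at -0.91. LSS, which folds squalene epoxide into lanosterol, gave 0.26 (SE 0.34), where CL4 alone gave 0.99 and where 1 probe set stood at -3.04 in the non-induced array of CL4. EBP, a sterol isomerase, gave 0.34 (SE 0.35). Of its probe sets, only that at 0.48 was below 0 in any clone, with -0.97 in CL46 and 2.21 in CL9. NSDHL, a sterol dehydrogenase, gave 0.04 (SE 0.24), and HSD17B7, a ketoreductase, -0.20 (SE 0.24). HSD17B7 rests on 1 probe set of the kind the platform marks as able to bind other transcripts.

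The 2 INSIG genes, whose proteins hold SCAP back, differed in opposite directions in each clone. INSIG2 had log2 ratios of -0.49, -0.61 and -0.34 in the induced arrays of CL4, CL9 and CL46 and of 0.37, 0.28 and 0.66 in the non-induced arrays. The groups lay well apart and the clones were close to each other, at -0.86, -0.89 and -1.01. The mean of -0.92 (SE 0.24, adjusted p = 0.256) nevertheless missed the fold threshold, so that INSIG2 was not called. INSIG1, itself a target of SREBPs, gave 0.51 (SE 0.26, adjusted p = 0.482). Its clones gave 0.80, 0.25 and 0.48, and each of its 3 probe sets lay above 0, from 0.31 to 0.76. The difference between the 2 genes was not tested.
The SREBP genes themselves were not called. SREBF1, whose products favour fatty acid genes, gave 0.35 (SE 0.32), and its clones gave 0.49, 0.39 and 0.17. Its 2 probe sets gave 0.62 and 0.07. Neither was above 0 in every clone, with -0.13 in CL46 for the former and -0.31 in CL9 for the latter. SREBF2, whose product favours sterol genes, gave -0.26 (SE 0.44), with clone values of -1.26, 0.19 and 0.30. That of CL4 came largely from 1 of the 3 probe sets, which stood at -3.53 in the induced array, and without CL4 the difference was 0.24. SCAP gave 0.04 (SE 0.24).

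Of the genes of fatty acid synthesis, SCD, the desaturase that makes oleate, had log2 ratios of 0.22, 0.21 and 0.32 in the induced arrays of CL4, CL9 and CL46 and of -0.59, -0.19 and -0.39 in the non-induced arrays. All 3 induced arrays lay above all 3 non-induced ones, and all 4 of its probe sets had differences above 0, from 0.43 to 0.94. The difference of 0.64 (SE 0.24, adjusted p = 0.352), a ratio of 1.56, was short of the fold threshold. The SCD probe set at 0.94 is of the kind the platform marks as able to bind other transcripts, and it gave -0.40 in CL9. FASN, the fatty acid synthase, gave -0.20 (SE 0.29), with 1 probe set at 0.27 and the other, also of that kind, at -0.67. ACACA, the acetyl-CoA carboxylase that supplies malonyl-CoA, gave 0.23 (SE 0.29), with 0.58, 0.35 and -0.24 in the clones.

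**Figure D2:**
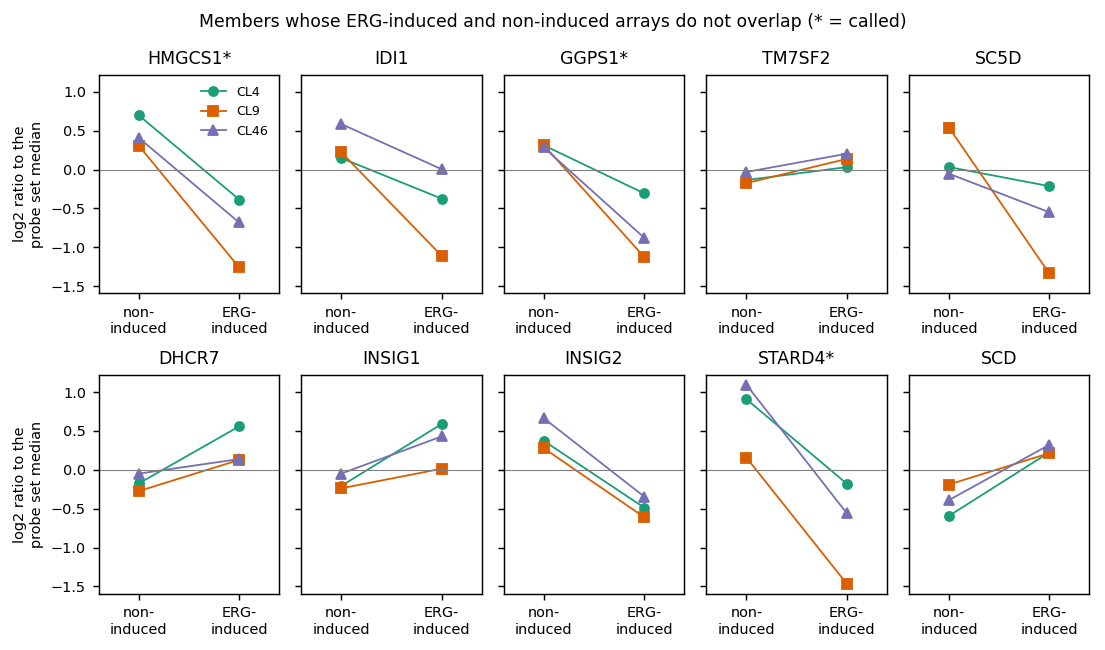
Log2 ratio to the probe set median (y axis) in the non-induced and ERG-induced array (x axis) of each clone, joined by a line, for the 10 members whose 2 groups of arrays do not overlap. Values are means over the probe sets of a gene. HMGCS1, IDI1, GGPS1, SC5D, INSIG2 and STARD4 run downward in every clone, and TM7SF2, DHCR7, INSIG1 and SCD run upward.

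In 10 of the 26 members (38.5%) the induced arrays all lay on 1 side of the non-induced arrays, against 21.6% of all genes, both by the mean over probe sets. All 3 clones differed downward in 7 members (26.9%), against 22.4% of all genes, and upward in 5 (19.2%), against 17.8%. The members were measured with less spread than most genes, with a median SE of 0.29 against 0.45 for all genes and a median SD over the non-induced clones of 0.22 against 0.46. By clone, 9 of the 26 members lay below 0 in CL4, 14 in CL9 and 16 in CL46, which is 34.6%, 53.8% and 61.5%, where 51.8%, 52.5% and 51.8% of all genes did. CL4, CL9 and CL46 had member medians of 0.26, -0.09 and -0.15. CL4 held 3 members with differences of -1 or lower, CL9 held 6 and CL46 held 4. The lowest value of each clone was that of SREBF2 in CL4 (-1.26), SC5D in CL9 (-1.88) and STARD4 in CL46 (-1.65). The highest was that of MVD in CL4 (1.96), MVK in CL9 (1.61) and SCD in CL46 (0.71), and differences of 1 or higher were found in 1, 1 and 0 members.

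**Figure D3:**
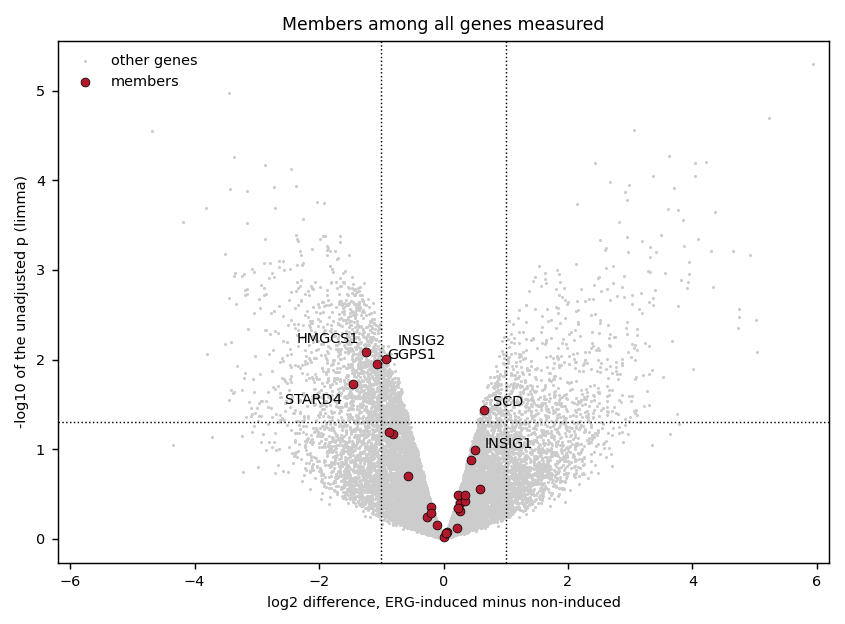
Log2 difference (x axis) against -log10 of the unadjusted p from limma (y axis) for all 19775 genes, in grey, and for the 26 members, in red. Dotted lines mark a fold of 2 and a p of 0.05, and only HMGCS1, GGPS1 and STARD4 pass both, while SCD and INSIG2 pass the p alone.

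Over single probe sets, 4 of the 55 (7.27%) were called lower and 1 (1.82%) higher, against 8.16% and 2.82% of all probe sets, so that these shares lie near the background. The median over the members' probe sets was 0.15, against -0.09 for all probe sets. Of the 16 members with 2 or more probe sets, 10 had all of them on 1 side of 0, among them HMGCS1, IDI1, GGPS1, SC5D, EBP, DHCR7, INSIG1 and SCD. In 6, namely MVK, SQLE, LSS, NSDHL, SREBF2 and FASN, they lay on both sides. The widest range was that of MVK, 3.59 on the log2 scale, and the narrowest that of DHCR7, 0.09.

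**Figure D4:**
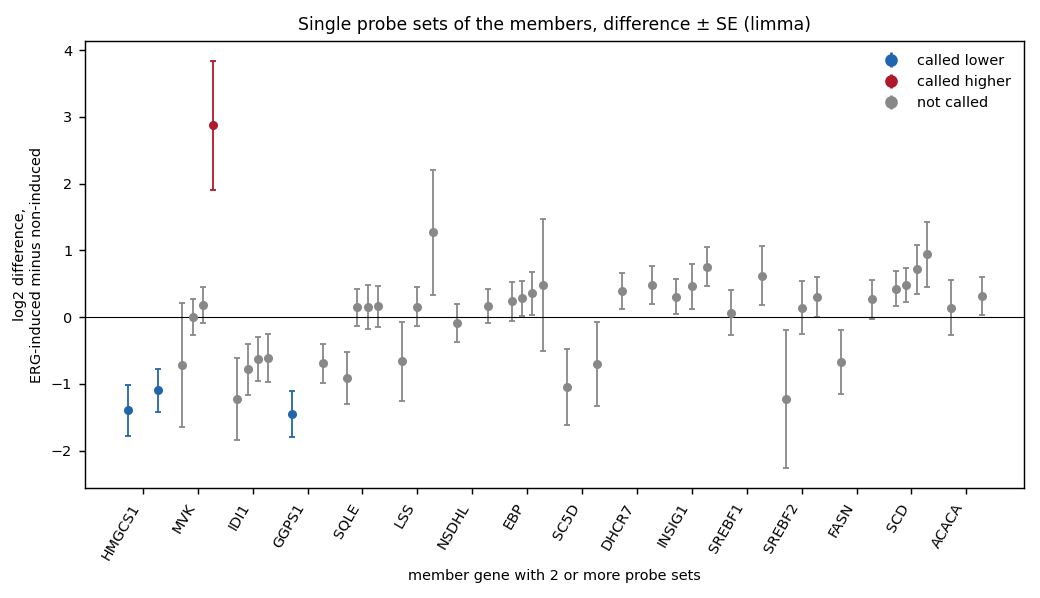
Log2 difference ± SE of the limma fit (y axis) for the single probe sets of the 16 members with 2 or more of them (x axis), with colours for called lower, called higher and not called. The probe sets of IDI1 and SCD keep to 1 side of 0, while 1 probe set of MVK stands at 2.87 above its other 3.

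Other genes of sterol and isoprenoid metabolism were taken from 4 further lists. Of 16 measured further SREBP target genes, 1 fell and 0 rose, with a median of 0.28 and 12 above 0 (75%, against 48.2% of all genes). ELOVL6, which elongates saturated fatty acids, was the one that fell (log2 difference -1.35, SE 0.26, adjusted p = 0.192), and it was called without any 1 of the clones too. ACSS2, which makes acetyl-CoA from acetate, gave 0.82 (SE 0.24) and GPAM, the first enzyme of glycerolipid synthesis, -1.77 (SE 0.84), neither of them called. The value of GPAM came largely from CL9, and without it was -0.88.
Of 8 genes of SREBP cleavage and sterol-sensed turnover, 1 fell and 0 rose, and the median was -0.55. In all 3 clones 6 of them lay below 0 (75%, against 22.4% of all genes). PAQR3, which tethers SCAP to the Golgi, fell by 1.38 on the log2 scale (SE 0.45). This call was lost without CL46 (-0.73) and under the clone block (unadjusted p = 0.067, adjusted p = 0.407, by limma). FBXW7, which marks nuclear SREBPs for degradation, gave -0.73 (SE 0.23), and SPRING1, which promotes the cleavage of SREBPs, -0.76 (SE 0.27). Both shrank with 1 of the 2 other summaries over probe sets. FBXW7 gave -0.165 with the probe set of highest mean ratio and -0.66 with the median. SPRING1 gave -0.213 with the median and -1.56 with the probe set of highest mean ratio.
Of 15 genes of LXR signalling, sterol efflux, storage and oxidation, 1 fell and 0 rose, and the median was -0.11. CYP27A1, the sterol 27-hydroxylase, fell by 1.33 (SE 0.38), and lost its call without CL4 (-0.98) or CL9 (-1.36). LPCAT3, which remodels phospholipids, gave 0.64 (SE 0.27), and SOAT1, which esterifies cholesterol, -0.61 (SE 0.28).
Of 15 genes that use isoprenoids for protein prenylation, dolichol and ubiquinone, 1 fell and 0 rose, with a median of -0.49 and 12 below 0. The share above 0 was 20%, against 48.2% of all genes. CHML, an escort protein for the prenylation of RAB proteins by geranylgeranyl groups, fell by 1.94 (SE 0.47, adjusted p = 0.235), and the values of CL4, CL9 and CL46 were -1.72, -2.20 and -1.88. PGGT1B, a subunit of the enzyme that adds geranylgeranyl groups to proteins, gave -0.77 (SE 0.27), and ZMPSTE24, a protease that trims prenylated proteins, -0.75 (SE 0.26). The share of called genes in each of these lists was 1 of 8 to 1 of 16, and 9.44% of all genes were called, so that the counts of calls are near the background. The shares above or below 0 were not tested.

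**Figure D5:**
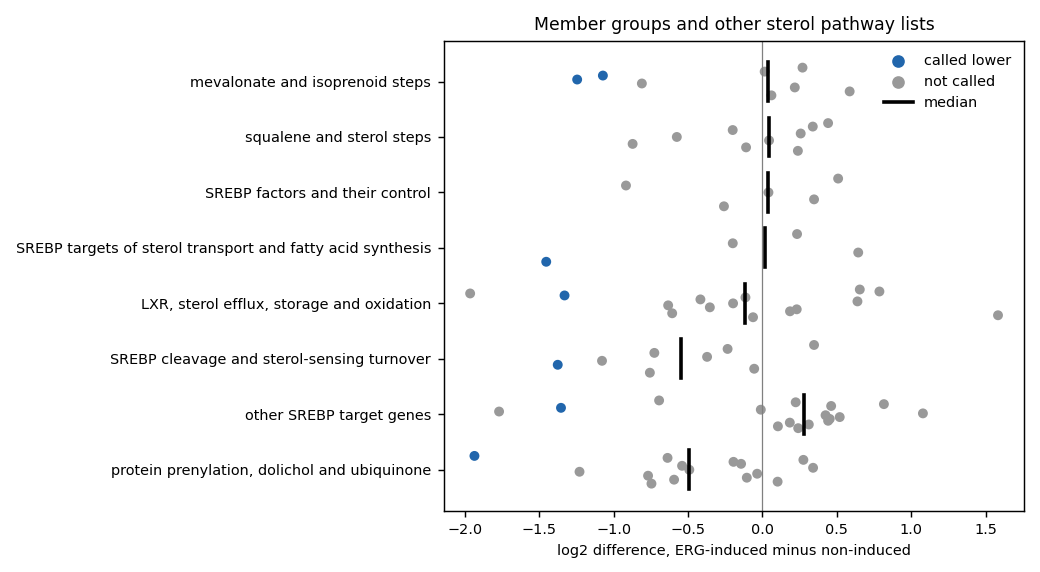
Log2 difference (x axis) of each measured gene of the 4 member groups and the 4 further lists (y axis), with blue for called lower, grey for not called and a black bar for the median of each list. The member groups have medians between 0.02 and 0.04, and the lists of SREBP cleavage and of isoprenoid use have medians of -0.55 and -0.49.

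ERG itself had a log2 difference of -0.76 over its 4 probe sets (SE 0.63, adjusted p = 0.671), and whether these probe sets detect the introduced ERG is not known, so that they check no label. Probe sets for ribosomal RNA, placed on the array as controls, gave log2 differences of 1.21, 0.59 and 0.82 in CL4, CL9 and CL46. HMGCS1, GGPS1, IDI1 and SC5D had their lowest differences in CL9, and STARD4, INSIG2 and MSMO1 in CL46. Of the megakaryocyte markers, 3 of 10 rose (SELP, GP1BA and ITGB3) and 0 fell, with a median of 1.13, and of the erythroid markers 0 of 9 rose and 1 fell (TFRC), with a median of 0.23. Of the monocyte and granulocyte markers 0 of 10 were called, and of the lymphocyte markers 1 of 7 fell (CD3D). Over all genes, 3.12% were called higher and 6.32% lower. The part of RNA quality and of cell state in the results for the members was not tested. As the values are ratios, whether a marker was present or absent cannot be read from them, and the same holds for the order of levels between genes.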

How the data were processed

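Biotin-labelled cRNA of the 6 cultures was hybridized to Affymetrix arrays and analysed by the authors with GeneSpring. The authors deposited a linear ratio for each probe set on each array, in which the median over the arrays was 1 (within 1e-05) for 50737 probe sets and below 1 for 3938. How background and array scale were treated earlier is not stated there. This division removes brightness, so neither depth nor signal over background is known, and the number of arrays limits the precision.
For this report, 62 control probe sets were left out, the log2 of each ratio was taken without a floor, and the probe sets carrying 1 gene symbol (41091 of 54613) were averaged by gene. Symbols were checked by gene ID against RefSeq genes on GRCh38.p14, which held 41037 of these probe sets and renamed 0. Probe sets and genes were each fitted with limma 3.58.1 (R 4.3.3, data.table package 1.17.8; lmFit and eBayes, no trend, two-sided), with Benjamini-Hochberg adjustment over all of them. The code was tested on simulated data. Calls used a fold of 2 and an unadjusted p under 0.05, as in the study, which names no test. SE is that of the log2 difference.
The members and the gene lists were chosen with earlier results of these data known. The text names every measured member, with values per array for those that were called or had a called probe set and for the 4 next by p, and from each further list the called genes and the 2 next by p; INSIG1, DHCR7 and markers were named for their group or list.
The clone pairs the arrays, since both cultures of a number come from the same clone (correlation of their deviations from the group means, across genes, 0.04, 0.05 and 0.03 in CL4, CL9 and CL46). Alternatives were the clone as a block, 2 other scalings, no moderation, a floor of 0.1 on ratios, 2 filters, 2 other summaries over probe sets, no minimum fold, and each clone left out. For the median of the members, the floor and both summaries were added after seeing the data. Nothing says that cultures were replicated within a clone.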

Additional observations from a re-analysis of the deposited data

How the results depend on the processing

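With the clone as a replicate block, 3 members were called lower and 0 higher, as without it, the lowest adjusted p of the members was 0.350, and of the members and the genes named from the 4 further lists only PAQR3 changed its call. Of the probe sets, 5 were called lower under the block, 1 of SC5D added, against 4 without it. The same 3 members were called lower with no moderation, with the floor on low ratios, without probe sets of median below 1, without _x_at and _s_at probe sets (18 members measured) and with both other summaries over probe sets. The all-gene median of -0.03 became 0.08 with centred arrays and 0.11 with quantile normalization, and both left 2 members called, HMGCS1 and STARD4. With no minimum fold, 4 members (INSIG2 added) were called lower and 1 (SCD) higher, with 2 probe sets higher. The 1 probe set called higher, of MVK, became 0 with no moderation. It is an _s_at probe set, so the filter on _x_at and _s_at probe sets removes it whatever its value. With that filter the median of the members was -0.22 over fewer genes. Leaving out 1 clone gave 0 to 3 genes called lower, 0 to 1 called higher, 2 to 3 probe sets lower and 0 to 1 higher. The differences of HMGCS1, GGPS1 and STARD4 then ran from -1.64 to -0.89.
Of the genes outside the member list, ACSS2 was called higher after quantile normalization (1.02) and GPAM lower with the floor (-1.38). With the probe set of highest mean ratio, GPAM (-1.26) and PGGT1B (-1.05) were called and PAQR3 (-1.85) was not. No called member changed sign. Of those not called, MVK gave -0.27, LSS -0.25 and SREBF2 0.22 without _x_at and _s_at probe sets. SQLE gave 0.0325 after quantile normalization and 0.0878 with the median over probe sets. With the probe set of highest mean ratio, MVK gave -0.72, SQLE 0.15, NSDHL -0.0824, SREBF2 0.30 and FASN 0.27. Leaving out clones, values ran from 0.0737 to 1.19 for MVK, -0.05 to 0.24 for PMVK, -0.65 to 0.95 for MVD, -0.11 to 0.16 for FDPS, -0.29 to 0.15 for SQLE, -0.11 to 0.51 for LSS, -0.12 to 0.14 for NSDHL, -0.54 to 0.24 for SREBF2, -0.0478 to 0.120 for SCAP and -0.43 to 0.0855 for FASN. The cause of these changes was not tested, and no direction is given for these genes.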
